A study of Rattus norvegicus with 8 samples.

Results

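The heat shock proteins and their DnaJ, BAG and Hsf partners were followed in heart muscle cells given extra miR-222. Members were all genes whose array annotation symbol begins with Hspa, Hspb, Hspd, Hspe, Hsph or Hsp90, or names a Dnaja, Dnajb or Dnajc gene, Bag1 to Bag6, Hsf1, Hsf2 or Cryab. This gave 73 of the 14506 genes that had a probe set paired with them alone, each read from its brightest probe set, and all 73 entered the test. A further probe set, paired with several genes of the HSP70 family, was left out.

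The cells were primary ventricular cardiomyocytes of newborn rats (NRVMs), isolated heart muscle cells that keep beating in short-term culture and are a common model of cardiac growth. They were plated in 6 cm dishes and transfected by lipid carrier with 0.4 µM of either a miR-222 precursor (4 arrays) or a scrambled control microRNA precursor (4 arrays), and RNA was extracted 48 h later. All groups therefore carried a transfected small RNA, and an untransfected group was not analysed here. Strain, sex and whether the arrays came from separate cultures are not given in the sources used here, and the p-values therefore reflect the spread among these arrays alone, part of which may be technical.

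MicroRNAs bind messenger RNAs mainly through bases 2 to 8, the seed, and lower their level or translation. The mature strand of miR-222 is shown because it is the agent of the comparison, with that of its relative miR-221, which lies beside it in the genome and has the same seed, GCUACAU. Both sequences are those of RefSeq on the rat assembly GRCr8, at chrX:6022682-6022702 and chrX:6023246-6023268 on the plus strand, with the seed in capitals.
rno-miR-222-3p: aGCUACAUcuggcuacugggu
rno-miR-221-3p: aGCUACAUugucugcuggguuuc

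Chaperones keep other proteins folded. HSP70 proteins bind unfolded stretches in cycles of ATP use, DnaJ proteins bring them clients and start the cycle, and HSP110 and most BAG proteins complete it by releasing the nucleotide. HSP90 completes the folding of kinases and receptors, HSP60 with HSP10 folds proteins inside mitochondria, and the small heat shock proteins, which are abundant in heart muscle, hold damaged proteins in solution without ATP. Hsf1 switches many of these genes on under heat or other protein damage by binding heat shock elements in their promoters.

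The values were array intensities on a log2 scale, and the 8 arrays had medians of 7.66 to 7.77. Hipk2, Hipk1 and Cdkn1b, genes for which the study is known as targets of miR-222, checked the labels: their log2 fold changes were -1.22, -0.74 and -0.39, and all 3 were past the threshold in limma. Arrays correlated at 0.989 to 0.993 within groups and at 0.983 to 0.989 between groups. Each fold change is a log2 difference, with the control mean subtracted from the miR-222 mean (n = 4 each) and with its standard error (SE) from limma. A gene is called when its Benjamini-Hochberg adjusted p over all probe sets was under 0.05. Among all genes 24.7% were called, 11.7% higher and 13.0% lower.

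Of the 73 chaperone genes 15 were called, which is 20.5%, with 7 higher and 8 lower in cells with miR-222. The share lay near that of all genes and below it. The members that fell were the muscle small heat shock genes Hspb3 and Hspb2, the DnaJ genes Dnajc9, Dnajb2, Dnajb11, Dnajc3 and Dnajc5, and Hspd1, which encodes HSP60. The members that rose were Hspbap1, Hspa4l, Dnajc18, Dnajc28, Hspbp1, Hsp90aa1 and Hspb8. The median over the members was -0.01 and that over all genes was 0.01.

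Within the miR-222 group, replicate 3 stood apart most often, with replicate 2 close behind over all members and all genes. Replicate 3 was the miR-222 array farthest from the other 3 in 8 of the 15 called members (53.3%). It was so in 27 of all 73 (37%) and in 33.2% of all genes. Replicate 2 was farthest in 2 of the 15 (13.3%), in 24 of the 73 (32.9%) and in 31.2% of all genes. Replicate 3 was the lowest miR-222 array in 6 of the 8 members that fell and in 3 of the 7 that rose. It was the lowest in 31 of all 73 members and in 4516 of the 14506 genes. Without replicate 3, 14 of the 73 members were called, 7 higher and 7 lower, with Hspd1 the call lost, beside 21.9% of all genes. Without replicate 2, 16 of the 73 were called, with Hspb8 and Hspd1 lost and Dnajb4, Dnajb5 and Hspa9 gained, beside 23.5% of all genes.

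Changes of the members were small. The median absolute log2 fold change was 0.09, beside 0.12 over all genes. The range was -0.63 to 0.38, beside -1.71 to 1.91 over all genes, but a range widens with the number of genes. Members changed by at least 1.5-fold in 2 of 73 cases (2.74%), Hspb3 and Dnajc9, and genes as a whole did so in 3.77%. The members were also measured with less spread: the median SD of a member was 0.04 among control arrays and 0.06 among miR-222 arrays, against 0.08 and 0.09 over all genes. Of the 73 members 65 had means above the lowest array median, and their spread was not compared with that of genes of like brightness. Values did not overlap between the groups in 29 members, 14 higher and 15 lower, and in 33.3% of all genes.

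**Figure D1:**
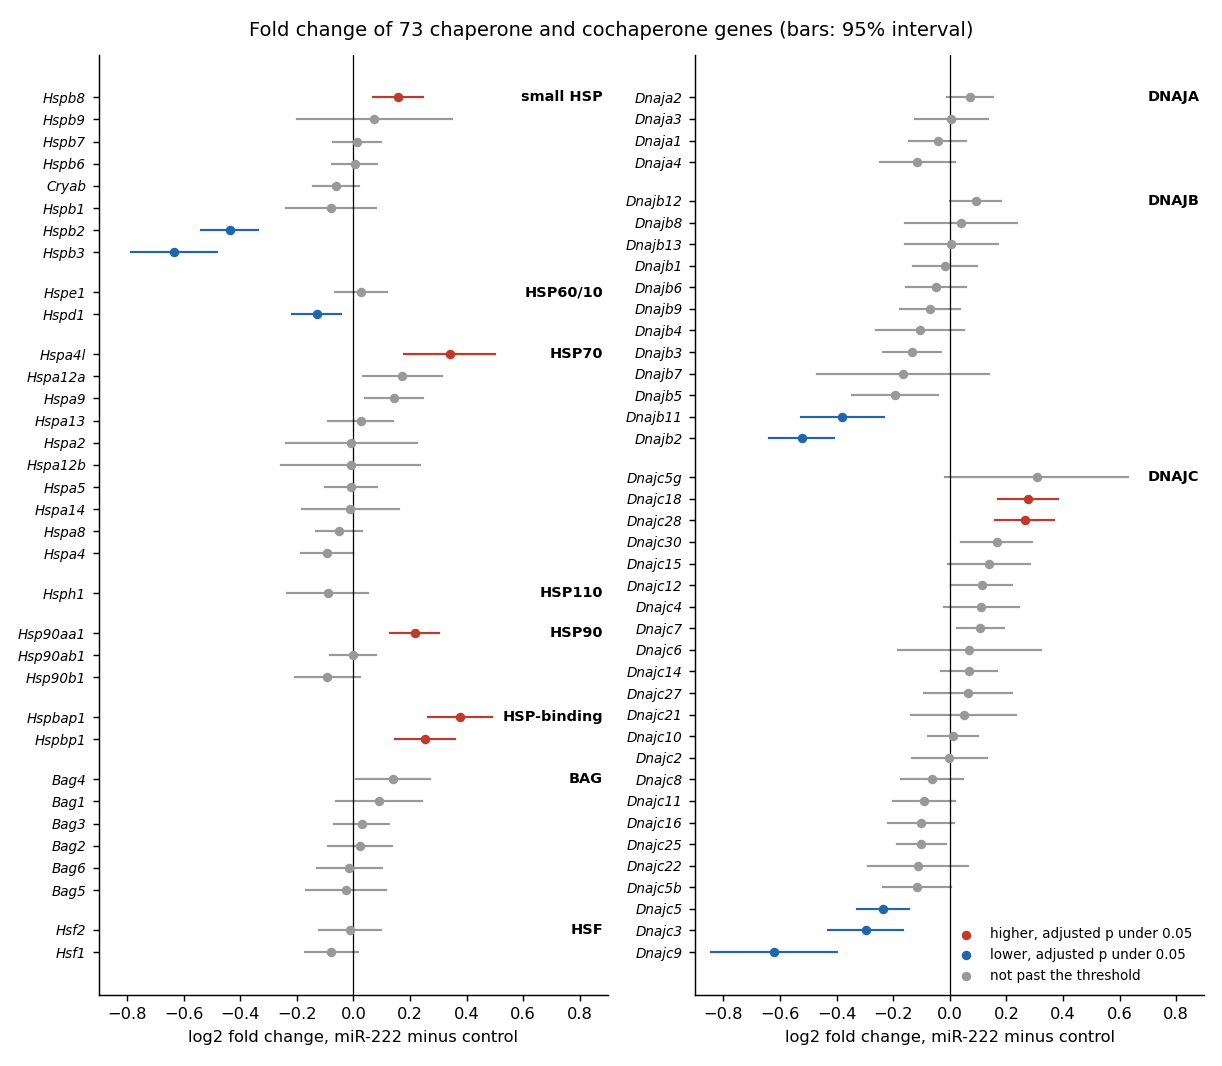
Log2 fold change (x axis, miR-222 minus control, n = 4 arrays each) of each of the 73 members, grouped by family, with the 95% interval of the limma fit as a bar. Red and blue points are the 7 higher and 8 lower members past the threshold, and grey points are the other 58, which run from -0.19 for Dnajb5 to 0.31 for Dnajc5g.

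Small heat shock proteins gave the largest fall and held both directions. Of 8 measured members Hspb3 and Hspb2 fell, Hspb8 rose and 5 did not pass. Hspb3 (probe set 10821389) and Hspb2 (probe set 10917290) encode muscle proteins that bind each other in a mixed complex. Hspb3 stood at 10.56, 10.51, 10.51 and 10.57 log2 units in the control arrays and at 9.93, 10.06, 9.75 and 9.88 with miR-222. Every miR-222 array lay below every control array, and replicate 3 was lowest. The fall was 0.63 on the log2 scale, and the log2 fold change of -0.63 (SE 0.07, limma adjusted p = 5.2e-04) is a level 1.55-fold lower. Without miR-222 replicate 3 it was -0.58.

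Hspb2 measured 11.98, 12.02, 11.94 and 12.002 in control arrays and 11.50, 11.62, 11.51 and 11.56 in miR-222 arrays. The groups were again apart, with a log2 fold change of -0.44 (SE 0.04, limma adjusted p = 4.24e-04), a 1.35-fold lower level. Hspb8 encodes a small heat shock protein that works with the cochaperone Bag3 in clearing damaged filament proteins of muscle. It went from 11.17, 11.17, 11.15 and 11.15 to 11.35, 11.35, 11.26 and 11.32. Its rise was 0.16 (SE 0.04, limma adjusted p = 0.0244), with all miR-222 arrays above the controls. The call was lost when any single array but miR-222 replicate 3 was left out (adjusted p up to 0.0683 among these 8 fits) and with each array centred on its median (adjusted p = 0.112).

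Cryab, the alpha B crystallin gene and the brightest probe set of this family, read 13.56, 13.54, 13.54 and 13.56 in control cells and 13.50, 13.49, 13.45 and 13.51 with miR-222. The miR-222 arrays were all slightly below, yet the difference of -0.06 had a 95% interval of -0.14 to 0.02 and did not pass (limma adjusted p = 0.287). Under variance moderation with a trend and a robust fit, Cryab passed as lower (limma adjusted p = 0.0152). Its intensity was near the top of the scale, where a fold change can be compressed. Hspb1, which encodes HSP27, measured -0.08 (interval -0.24 to 0.08). The value of Hspb1 in miR-222 replicate 3 was 12.12 and those of the other 3 arrays were 12.35 to 12.41, and without that array the difference was -0.01. The cardiac Hspb6 and Hspb7 had intervals of -0.08 to 0.08 and -0.07 to 0.10, and Hspb9, a testis form, measured 0.07 with a wide interval of -0.20 to 0.35.

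Of the HSP90 genes, the stress-inducible Hsp90aa1 was the member that rose. Hsp90aa1 (probe set 10892184) measured 11.87, 11.88, 11.92 and 11.91 in control arrays and 12.12, 12.12, 12.07 and 12.14 in miR-222 arrays. The groups did not overlap, and the rise was 0.22 (SE 0.04, limma adjusted p = 0.00517), which is 1.16-fold. Hsp90ab1, the constitutive cytosolic form, read 12.65, 12.66, 12.65 and 12.63 in control cells and 12.68, 12.62, 12.66 and 12.63 with miR-222. These values overlapped, with an interval of -0.08 to 0.08. Hsp90b1, the form of the endoplasmic reticulum (ER), measured -0.09 (SE 0.05, limma adjusted p = 0.257), and in the miR-222 group it read 12.12 in replicate 3 and 12.28 to 12.30 in the other arrays.

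Of 10 measured HSP70 genes 1 rose and 9 did not pass. Hspa1a and Hspa1b, the inducible HSP70 genes, were not among the 10, so no result here covers them. Hspa4l (probe set 10815099), a member of the HSP110 branch that acts as a nucleotide exchange factor, went from 8.67, 8.64, 8.80 and 8.46 to 9.03, 8.99, 8.94 and 8.97. All miR-222 arrays were above the controls, among which the spread was wider (SD 0.14 against 0.04). The rise was 0.34 (SE 0.07, limma adjusted p = 0.0114), or 1.27-fold. Hspa8, the constitutive HSC70, measured 13.48 in all 4 control arrays and 13.43, 13.43, 13.40 and 13.46 with miR-222, a difference of -0.05 (interval -0.13 to 0.03) that did not pass. Hspa8 was paired with 8 probe sets, whose differences were -0.05 to -0.04. Near-identical copies of this gene can share its signal, so these probe sets are uncertain as separate measures.

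Among the remaining HSP70 genes, the mitochondrial Hspa9 (mortalin) measured 0.14 (SE 0.04, limma adjusted p = 0.061) with all miR-222 arrays above the controls, and the ER form Hspa5 (BiP) had an interval of -0.10 to 0.08. Hspa4 measured -0.09 and Hspa12a 0.17, and neither passed. Hspa2, Hspa12b, Hspa13 and Hspa14 lay between -0.01 and 0.03. Hsph1, which encodes HSP110 and is strongly induced by heat, read 9.80, 9.79, 9.73 and 9.70 in control cells and 9.69, 9.71, 9.50 and 9.75 with miR-222. The groups overlapped, and the difference of -0.09 (interval -0.23 to 0.05, limma adjusted p = 0.38) was -0.04 without miR-222 replicate 3.

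Hspd1, encoding HSP60 of the mitochondrial folding chamber, was slightly lower. It measured 12.25, 12.26, 12.23 and 12.23 in control arrays and 12.17, 12.11, 12.07 and 12.11 in miR-222 arrays. The groups were apart, but the fall was only 0.13 on the log2 scale: the log2 fold change was -0.13 (SE 0.04, limma adjusted p = 0.0483). The call was lost without any single array (adjusted p up to 0.12) and under quantile normalization (adjusted p = 0.0791) or median centring (adjusted p = 0.0775). A dimmer probe set of Hspd1 gave -0.15 (SE 0.04, limma adjusted p = 0.035). Hspe1, encoding the HSP10 lid of the same chamber, read 12.48, 12.49, 12.50 and 12.42 in control cells and 12.47, 12.54, 12.47 and 12.52 with miR-222, and these values overlapped (interval -0.06 to 0.12).

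Both genes named for proteins that bind heat shock proteins rose. Hspbap1, whose product binds HSP27, went from 8.19, 8.04, 8.005 and 8.11 to 8.46, 8.46, 8.49 and 8.44, the largest rise of the 73 members at 0.38 (SE 0.05, limma adjusted p = 0.00139). The 4 miR-222 arrays agreed within 0.02 (SD). Hspbp1, a nucleotide exchange factor that holds back HSP70, measured 9.24, 9.37, 9.30 and 9.24 in control cells and 9.57, 9.55, 9.58 and 9.47 with miR-222. Its groups did not overlap, and the rise was 0.25 (SE 0.05, limma adjusted p = 0.00682).

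**Figure D2:**
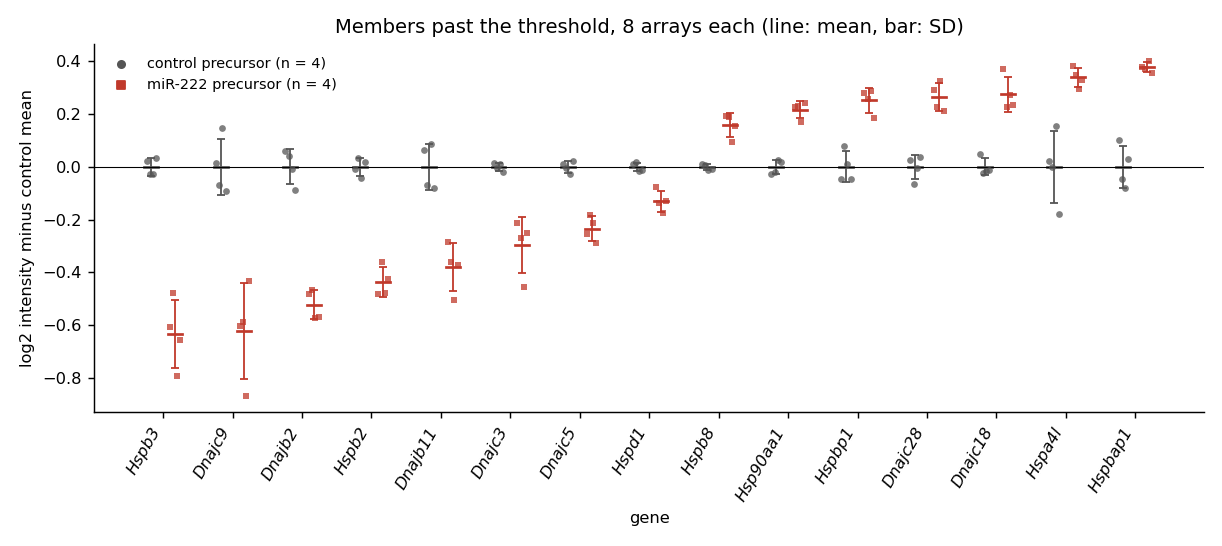
Log2 intensity of each array minus the control mean of that gene (y axis) for the 15 members past the threshold, ordered by fold change, with group means as lines and SDs as bars (n = 4 each). In all 15 genes the miR-222 squares lie to a single side of the control circles, from -0.63 for Hspb3 to 0.38 for Hspbap1.

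Among the 4 DnaJA genes, close relatives of the bacterial DnaJ, none was called by limma at the adjusted threshold, and none had an unadjusted p under 0.05. The brightest, Dnaja1, read 11.91, 11.92, 11.93 and 11.96 in control cells and 11.82, 11.88, 11.87 and 11.97 with miR-222. These values overlapped, with an interval of -0.14 to 0.06. Dnaja2, Dnaja3 and Dnaja4 lay between -0.11 and 0.07.

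Of 12 DnaJB genes 2 fell and 10 did not pass. Of the 12 differences 9 were below zero, as were 6796 of the 14506 over all genes, and the family was not tested as a set. Dnajb2 (probe set 10924494), a ubiquitin-binding DnaJ protein of neurons and muscle that sends clients to the proteasome, measured 11.20, 11.18, 11.13 and 11.05 in control arrays and 10.66, 10.68, 10.57 and 10.57 in miR-222 arrays. The groups did not overlap, with a log2 fold change of -0.52 (SE 0.05, limma adjusted p = 3.64e-04), a 1.44-fold lower level. Dnajb11, a partner of BiP in the ER, went from 10.63, 10.49, 10.65 and 10.48 to 10.28, 10.20, 10.06 and 10.19. It too was lower in every miR-222 array, by a log2 fold change of -0.38 (SE 0.06, limma adjusted p = 0.00454).

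Dnajb4, the brightest DnaJB probe set, read 11.87, 11.85, 11.82 and 11.92 in control arrays and 11.67, 11.94, 11.73 and 11.68 in miR-222 arrays. The second miR-222 array lay above all controls and the other 3 below them, and the difference of -0.11 did not pass (limma adjusted p = 0.34). Dnajb1, the heat-inducible HSP40, had an interval of -0.13 to 0.10. Dnajb5 measured -0.19 (limma adjusted p = 0.0826), Dnajb3 -0.13 (adjusted p = 0.0773), Dnajb6 -0.05 and the ER form Dnajb9 -0.07. Dnajb7, Dnajb8 and Dnajb13, which are known from testis, had means below every array's median, where background can hide a change. Dnajb12, a membrane protein of the ER, measured 0.09.

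The DnaJC family, whose members share little but the J domain, was called in both directions, with 2 of 23 higher, 3 lower and 18 not past the threshold. Dnajc9 (probe set 10779162) encodes a cochaperone that handles histones, and its level is known to follow the cell cycle. It measured 10.09, 10.01, 10.22 and 9.99 in control arrays and 9.48, 9.49, 9.21 and 9.65 in miR-222 arrays. The groups did not overlap, and replicate 3 was lowest. The log2 fold change was -0.62 (SE 0.10, limma adjusted p = 0.00317), a 1.54-fold lower level, and -0.54 without miR-222 replicate 3.

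Dnajc3 encodes p58IPK, a BiP partner that also inhibits kinases of the stress response. It went from 10.51, 10.50, 10.51 and 10.48 to 10.29, 10.23, 10.05 and 10.25. The control arrays were close together and every miR-222 array lay below them, with a log2 fold change of -0.30 (SE 0.06, limma adjusted p = 0.0087), and -0.24 without miR-222 replicate 3. Dnajc5, the cysteine string protein of secretory vesicles, measured 10.66, 10.64, 10.62 and 10.67 in control cells and 10.39, 10.47, 10.44 and 10.36 with miR-222. Its fall was of similar size, at -0.23 (SE 0.04, limma adjusted p = 0.00485).

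Dnajc18 (probe set 10803911), a membrane DnaJ protein of the ER, rose from 11.07, 11.00, 11.01 and 11.01 to 11.39, 11.25, 11.29 and 11.26, by 0.28 (SE 0.05, limma adjusted p = 0.00438). Dnajc28, a little-studied member, measured 9.56, 9.47, 9.53 and 9.57 in control arrays and 9.82, 9.76, 9.86 and 9.74 in miR-222 arrays. Its values were apart between the groups, with a rise of 0.26 (SE 0.04, limma adjusted p = 0.00477).

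Dnajc7, the brightest DnaJC probe set and a cochaperone that binds both HSP70 and HSP90, read 11.26, 11.27, 11.24 and 11.26 in control cells and 11.38, 11.33, 11.40 and 11.37 with miR-222. All miR-222 arrays were above the controls, but the difference of 0.11 (SE 0.04) did not pass (limma adjusted p = 0.0748). Dnajc11, Dnajc15 and Dnajc30, which are among the mitochondrial members, measured -0.09, 0.14 and 0.17, and none of these 3 passed. Dnajc2, Dnajc4, Dnajc6, Dnajc8, Dnajc10, Dnajc12, Dnajc14, Dnajc16, Dnajc21, Dnajc22, Dnajc25, Dnajc27 and Dnajc5b lay between -0.12 and 0.11. Dnajc5g measured 0.31 with an interval of -0.02 to 0.63, at a mean below every array's median.

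Bag1 to Bag6, Hsf1 and Hsf2 gave no call. None of the 6 BAG genes passed in limma, and 1, Bag4 at 0.14, had an unadjusted limma p under 0.05 (adjusted p = 0.139). The brightest, Bag3, a stress-induced cochaperone needed for the upkeep of heart muscle filaments, read 11.55, 11.50, 11.47 and 11.52 in control cells and 11.59, 11.57, 11.52 and 11.49 with miR-222. These values overlapped, with an interval of -0.07 to 0.12. Bag1, Bag2, Bag5 and Bag6 lay between -0.03 and 0.09. Hsf2 measured 11.36, 11.38, 11.39 and 11.45 in control arrays and 11.39, 11.37, 11.30 and 11.47 in miR-222 arrays, which overlapped. Hsf1 measured -0.08 (interval -0.17 to 0.01, limma adjusted p = 0.239), with each miR-222 array below the controls. The transcript levels say nothing of the activity of these factors, which is set on the protein.

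Promoters were searched for the heat shock element, the site of Hsf1, as 3 alternating units with the letters GAANNTTCNNGAA on either strand (TTCNNGAANNTTC on the other), in the window from 250 bases before to 50 after the start in RefSeq's GRCr8 table. The table held a promoter for 58 of the 73 members. Of these, 5 held a match (8.62%), Hspd1, Hspe1, Hspa8, Hsph1 and Dnaja1, and so did 0.798% of all promoters in the table. The second share is over 33469 promoters of any gene, measured or not, and the first is over member genes, so they are not like for like. Hsp90aa1, Hspb2 and Cryab were among the members without an entry, and Hspa1a and Hspa1b were not among the 73 members. The stretches are shown because they hold the letters of the element, and the capitals mark the matches. Hspd1 and Hspe1 are neighbours read in opposite directions, and the same bases of their shared promoter appear in both, once on each strand. Their 2 matches overlap. The Hspd1 stretch is chr9:64084238-64084287 on the minus strand, that of Hspe1 chr9:64084238-64084303 on the plus strand, that of Hsph1 chr12:10427308-10427368, that of Dnaja1 chr5:60638389-60638449 and that of Hspa8 chr8:50080277-50080495, the last 3 on the plus strand.
Hspd1: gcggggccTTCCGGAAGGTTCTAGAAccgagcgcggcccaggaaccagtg
Hspe1: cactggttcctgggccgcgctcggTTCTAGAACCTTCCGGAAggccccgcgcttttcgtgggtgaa
Hsph1: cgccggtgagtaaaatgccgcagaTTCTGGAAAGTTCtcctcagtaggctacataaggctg
Dnaja1: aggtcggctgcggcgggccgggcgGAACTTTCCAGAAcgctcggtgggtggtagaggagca
Hspa8: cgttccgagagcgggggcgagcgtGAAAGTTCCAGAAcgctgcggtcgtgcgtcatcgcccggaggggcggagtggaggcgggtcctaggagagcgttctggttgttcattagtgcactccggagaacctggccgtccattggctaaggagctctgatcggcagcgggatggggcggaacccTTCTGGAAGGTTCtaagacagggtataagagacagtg

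Of the 5 members with a match 1, Hspd1, was called lower by limma and 4 did not pass. Their log2 fold changes were -0.13 for Hspd1, 0.03 for Hspe1, -0.05 for Hspa8, -0.09 for Hsph1 and -0.04 for Dnaja1. The median of these 5 was -0.05, and that of the 53 members with a promoter and no match was 0.00. Of those 53, 12 were called. A match is a string of letters in a fixed window, and no binding was measured.

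**Figure D3:**
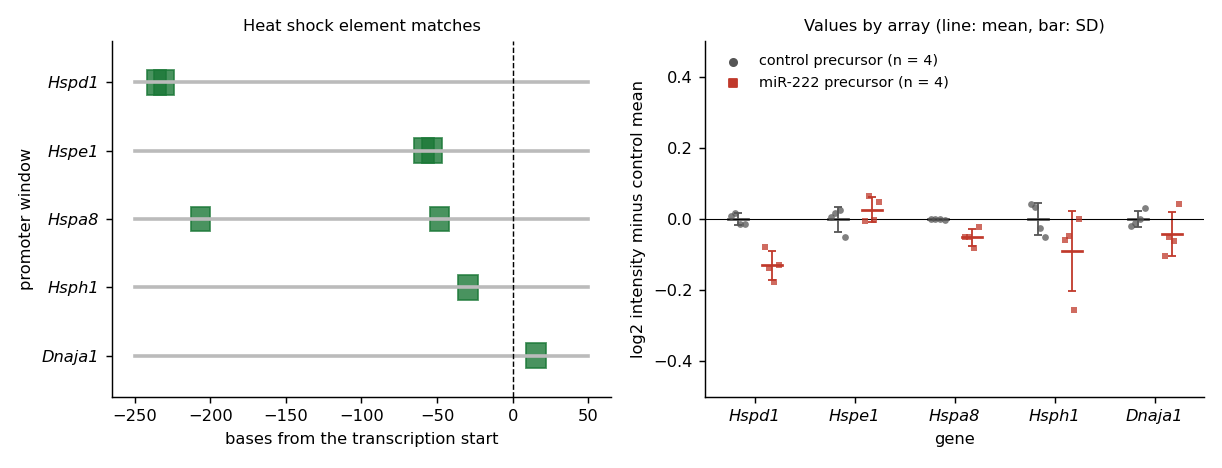
Left, the promoter windows of the 5 members with a heat shock element match, drawn by distance in bases from the transcription start (dashed line), with each 13-base match as a green box. Right, log2 intensity of each array minus the control mean (lines are means, bars SDs, n = 4 each); Hspd1 is lower by 0.13 and the other 4 members did not pass.

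Neighbours, paralogs and binding partners among the members were set side by side as the log2 ratio of the pair within each array. The 6 pairs were picked with their values already known, so the differences are given as a description with no test.

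Hspb2 and Cryab lie next to each other on chromosome 8, and the ratio of Hspb2 to Cryab was lower by a log2 difference of -0.38 with miR-222, from -1.56 ± 0.03 to -1.94 ± 0.06 (mean ± SD, n = 4 each). The probe set of Cryab lies near the top of the scale, where a fold change can be compressed, and the ratio is read with that limit. Hspb3 and Hspb2, the partners in a complex, both fell, with a difference of 0.20 between their log2 fold changes. For the neighbours Hspd1 and Hspe1 on chromosome 9 the log2 ratio went from -0.23 ± 0.03 to -0.39 ± 0.06, a difference of -0.16. The paralogs Hsp90aa1 and Hsp90ab1 differed by 0.22 in their log2 fold changes, and Hspa4l and Hspa4 by 0.43. Hspb8 and Bag3 differed by 0.13, the smallest of the 6.

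**Figure D4:**
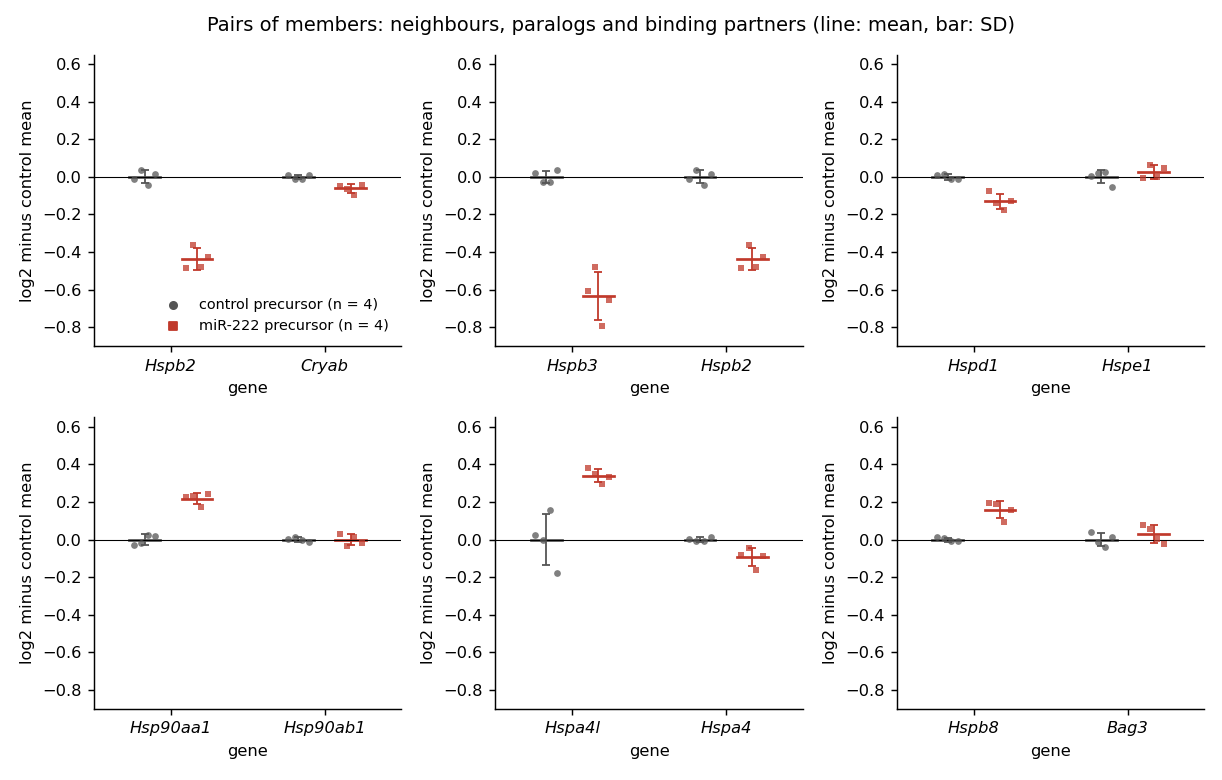
Log2 intensity of each array minus the control mean of that gene (y axis) for 6 pairs of members; circles are control and squares miR-222 arrays, lines are means and bars SDs (n = 4 each). Hspb2 drops by 0.44 and its neighbour Cryab, near the top of the scale, reads -0.06, and Hspa4l, at 0.34, lies above its paralog Hspa4.

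Other genes of the folding pathways were read from further lists, chosen with earlier results of these data known. Called were 35% of the HSP70 and HSP90 partners, 14.3% of the TRiC and prefoldin genes and 47.1% of the ER partners. The shares were 20% for the mitochondrial partners and 18.2% for ubiquitin and aggregate handling. The lists also held genes outside their names, among them the called genes Hsf4 (with the HSP70 and HSP90 partners) and Bcl2l1 (with ubiquitin handling). Among all genes 24.7% were called, and no list was tested as a set. Of the 20 measured genes in the list of HSP70 and HSP90 partners, 3 rose and 4 fell. Ppid and Fkbp5, prolyl isomerases that bind HSP90, fell by a log2 fold change of -0.34 (SE 0.06) and -0.45 (SE 0.08). Ptges3, the HSP90 cochaperone p23, rose by 0.16 and the factor gene Hsf4 by 0.30. Hsf4 was dim, with a mean of 6.92 log2 units, below every array's median. A list of 14 measured genes covered the cytosolic chaperonin TRiC and prefoldin, which fold actin and tubulin. It also held Pdcl3 and Txndc9, which are not subunits of either. Of the 14, 2 fell, Pfdn1 at -0.25 and Tcp1 at -0.17, and the list median was -0.10.

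Partners of the ER chaperones were called in 8 of 17 cases (47.1%, beside 24.7% of all genes), 3 higher and 5 lower, with a median of -0.05. The BiP exchange factor gene Hyou1 fell, at -0.31 (SE 0.05), the disulfide isomerase gene Pdia6 at -0.46 (SE 0.06) and the translocon gene Sec62 at -0.54 (SE 0.06), whereas Sec61b rose by 0.34 (SE 0.05). Among the ER members themselves Dnajb11 and Dnajc3 fell and Dnajc18 rose, and Hspa5, Hsp90b1, Dnajb9, Dnajb12 and Dnajc10 did not pass. Of 15 measured partners of mitochondrial chaperones and import 2 rose, the iron-sulfur scaffold gene Iscu by 0.35 (SE 0.04) and the protease chaperone gene Clpx by 0.24, and the channel gene Timm23 fell at -0.14. Of the 11 measured genes listed for ubiquitin and aggregate handling, Ubqln1, a shuttle to the proteasome, rose by 0.25. Bcl2l1, a survival gene in the list but outside that pathway, fell at -0.23. The ubiquitin ligase gene Stub1, which tags clients of HSP70, measured -0.13 (limma adjusted p = 0.0698).

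Cardiomyocyte markers were bright in every array: Tnnt2, Myh6, Actc1, Ryr2, Nkx2-5 and Tnni3 all had means of at least 11.80 log2 units. Of these 6, Nkx2-5 rose by 0.15, Ryr2 fell at -0.14 and 4 did not pass. Markers of other cells were read in the same arrays. All 6 fibroblast differences were below zero, 1 of them (Postn, -0.54) past the threshold, and their mean level centred on each gene was 0.04 to 0.22 in control and -0.21 to 0.00 in miR-222 arrays. Of the 4 smooth muscle markers Tagln fell, at -0.91, and Cnn1, Acta2 and Myh11 measured -0.28, -0.08 and 0.16 and did not pass. The ranges of the list were 0.11 to 0.15 and -0.27 to -0.03, to which Tagln contributed most. Of the 4 measured endothelial markers Kdr fell, at -1.51. Cdh5, Tek and Pecam1 measured -0.13, -0.02 and 0.04 and did not pass, and their means lay below every array's median. The ranges were 0.17 to 0.23 and -0.28 to -0.11, to which Kdr contributed most. The 4 macrophage markers ranged from -0.16 to 0.00 and from 0.01 to 0.10, with C1qa up by 0.26. C1qa was dim, with means of 6.75 in control and 7.01 in miR-222 arrays, and all 4 macrophage markers had means below every array's median. No marker was listed at 0, and the dimmest of each list were Pdgfra at 7.61, Myh11 at 8.24, Tek at 7.13 and Adgre1 at 6.33 log2 units. Fewer cells of a type, less RNA per cell and a change of single markers cannot be told apart here. The part of these cells in the chaperone results was not tested.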

How the data were processed

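RNA of 8 samples of cultured rat cardiomyocytes was labelled with biotin by in vitro transcription and hybridised, per the labels' protocols. The deposited table held linear intensity values of 29170 probe sets, from 0.8 to 16339, with no zeros. The authors' background correction, summary and normalization are not given in the sources used here. The series text names another rat array, but the identifiers pair with the annotation of the Rat Gene 1.0 ST platform. The number of arrays limits the precision.

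Values were taken as log2 with no pseudocount and fitted over all probe sets with limma 3.58.1 (lmFit, eBayes) in R 4.3.3, adjusted by Benjamini-Hochberg at a threshold of 0.05. Genes were read from their brightest probe set (highest mean log2) among the 15310 paired with 1 gene. The 73 gene identifiers of the members all matched a current RefSeq table. Replicates were numbered in accession order. Plots used matplotlib 3.10.9 and Python 3.11.15.

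Members and lists were chosen with earlier results of these data known. Values by array were given for called members and the brightest member of each family, called members were all named, and further lists gave up to 4 genes with the smallest p. Alternatives covered a pseudocount, a filter on dim probe sets, normalization, variance moderation, array weights, the probe sets used and leaving out each array. In simulated arrays with 200 changed of 29170 probe sets, the fit recovered 16.4% of log2 changes of 0.25 and 55.7% of 0.5. Because far more probe sets changed in the real arrays, these rates need not hold there.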

Additional observations from a re-analysis of the deposited data

Results flagged for a closer look

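Among the 146 groups of 4 arrays formed by the 73 members, 8 held an array that lay beyond Dixon's 95% limit from the other 3, and chance flags about 1 in 20, or 7.3 of 146. They were spread over 6 of the 8 arrays, and Dnajc18 was the called member among them. Dnajc18 read 11.07 in control replicate 1 and 11.00 to 11.01 in the other controls, below all its miR-222 values. Hsf1 was flagged in both groups, at 9.94 in control replicate 2 against 10.01 in each of the others and at 9.85 in miR-222 replicate 2 against 9.93 to 9.94. Hsp90b1 read 12.12 in miR-222 replicate 3 against 12.28 to 12.30. Dnaja2 read 11.24 in control replicate 3 against 11.26 to 11.27, and Dnajb12 read 10.34 in control replicate 4 against 10.41. Dnajc6, a dim probe set, read 7.34 in control replicate 4 against 6.98 to 6.99, and Dnajc14 read 9.82 in miR-222 replicate 2 against 9.69 to 9.71.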

How the results depend on the processing

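Of the 15 called members, 13 were called in the same direction under all 16 alternatives, and no called member changed sign. The others, Hspb8 and Hspd1, lost their calls under the settings named with their values. Of the 58 members that were not called, 12 passed under at least 1 alternative, among them Hspa9, Dnajc7 and Dnajb5. The number of called members ranged from 13 to 16 over the fits that left out 1 array each, while the share of all genes called ranged from 18.5% to 23.5%. Leaving out the dimmest 40% of probe sets kept 66 members and called 11 higher and 11 lower, beside 42.6% of the genes kept. Variance moderation with a trend and a robust fit called 22 members, and 28.9% of all genes. It called Cryab, Hspa4 and Hspa8 lower, and no other alternative called them. The median over the members was -0.033 when each array was centred on its median, a setting that moved the median of all genes from 0.01 to -0.01. No paired analysis was possible because the labels give no replicate numbers that the groups share. Of the members, 8 had means below every array's median, none of them called, and the brightest probe sets lie where intensities can saturate.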

Other observations

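Both probe sets paired with Dnajb12 had the same values in all 8 arrays, and so count as 1 measurement. Over all the deposited values, 324 probe sets repeated the 8 values of another probe set.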
